A study of Mus musculus with 9 samples.

Results

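The 10 genes described here are signalling genes of the transforming growth factor beta (TGF-beta) and bone morphogenetic protein (BMP) pathways in mouse haematopoietic stem cells, the marrow cells that give rise to all blood lineages. They were taken by symbol from a table of 52550 gene identifiers. By role they are the ligand Tgfb1, the receptors Tgfbr1 and Tgfbr2, the inhibitory Smads Smad6 and Smad7, the co-repressors Ski and Skil, and the BMP target genes Id1, Id2 and Id3. In these pathways a ligand joins type I and type II receptor kinases, which phosphorylate Smad proteins that enter the nucleus and regulate transcription. The inhibitory Smads, Ski and Skil restrain the signal, and several of them are themselves switched on by it. Id proteins bind E proteins, a class of helix-loop-helix transcription factors, and keep them from DNA. TGF-beta is known to hold haematopoietic stem cells in quiescence.

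RNA was sequenced in 9 libraries, 3 in each of 3 groups. The first group came from old Sphk2 knockout (KO) mice aged 22 to 24 months, with the genotype B6N.129S6-Sphk2tm1Rlp/J, which the labels mark as Sphk2 cKO, with no Cre driver named. The second came from old wild-type (WT) mice of the same age range and the third from young WT mice aged 2 months. The 1000 marrow cells of each library were sorted for Sca1, c-Kit and CD150 and against lineage markers and CD48, and the labels call the libraries of a group technical replicates. Since no mouse, litter or day is given, p-values measure only the spread between these libraries, which may be technical.

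Levels are given as CPM, with each library scaled by its counts in genes. The counts in genes ran from 11284847 to 17544945 in old KO, from 3145167 to 5115003 in old WT and from 28088637 to 74021822 in young WT libraries. Reads outside annotated genes made up 45.0% to 61.9% of all counts in old KO, 80.8% to 87.7% in old WT and 6.51% to 12.5% in young WT libraries. The density of reads over olfactory receptor exons served as the background of each library, since most of these genes were taken to be silent in these cells. The 1% of them with the highest density in a library was left out. This background lay between 0.316 and 0.646 CPM per kb in old KO, 1.72 and 3.02 in old WT and 0.0159 and 0.0459 in young WT. For a gene to be called above background in 1 library, 20 counts were required, and 5 times the number that this density predicts for its exons. Of all 52550 genes, 5.83% passed in at least 2 old KO libraries, 1.21% in at least 2 old WT libraries and 15.9% in at least 2 young WT libraries. Of the 4 genes behind the sort that were checked (Kit, Ly6a and Slamf1, and Cd48, which the sort removes), 2 passed in at least 2 libraries of old KO, 0 of old WT and 3 of young WT. These counts pool Cd48 with genes the sort keeps, so they do not measure its purity. In young WT library 2 all 4 passed, Cd48 included. Because group and background differ together, a difference between groups cannot be told apart from the difference in library content. In bulk samples, fewer cells of a type and less RNA per cell cannot be told apart either. The targeted gene Sphk2, which encodes a sphingosine kinase, had 0.892, 2.04 and 0.456 CPM in old KO and 3.91, 0.318 and 10.2 CPM in old WT libraries and was above background in none of these 6, so it does not check the KO label.

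The sequence before the start site is shown for Id3 and Id2, a pair of Id genes whose levels took different courses across the groups. Each run holds the 250 bases before the RefSeq start site on GRCm38.p6, read 5′ to 3′ along the gene's strand. The RefSeq starts lie inside the GENCODE gene spans given below, so the Id2 window and the Id3 window both fall within those spans and not before the GENCODE 5′ ends. Id3 lies on the plus strand (chr4:136143572-136143821) and Id2 on the minus strand (chr12:25096093-25096342). Capitals mark GGCGCC, a core found in BMP-responsive elements, and GTCTG or its reverse complement CAGAC, which contain the box that Smad proteins bind.
Id3: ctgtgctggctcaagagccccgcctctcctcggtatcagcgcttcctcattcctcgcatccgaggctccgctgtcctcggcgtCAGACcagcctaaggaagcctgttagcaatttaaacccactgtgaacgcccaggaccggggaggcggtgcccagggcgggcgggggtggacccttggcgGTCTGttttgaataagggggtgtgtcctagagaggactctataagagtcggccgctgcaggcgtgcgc
Id2: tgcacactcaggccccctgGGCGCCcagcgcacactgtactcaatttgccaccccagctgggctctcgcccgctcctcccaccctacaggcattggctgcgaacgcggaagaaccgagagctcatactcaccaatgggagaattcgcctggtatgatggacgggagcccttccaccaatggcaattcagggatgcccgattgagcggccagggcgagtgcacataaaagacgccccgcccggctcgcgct
The Id3 window held 2 matches of GTCTG or CAGAC, 167 and 68 bases before the start, and 0 of GGCGCC. The Id2 window held 1 GGCGCC, 231 bases before the start, and 0 of the other motif. Among 32851 windows of the same length, 42.2% held GTCTG or CAGAC and 9.59% held GGCGCC. The motifs share no letters in these windows, both strands were searched, and a match is a description of the letters. Of the 10 members, 7 matched this promoter table.

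Id1 had the highest mean level per exon length of the 10 genes in every group. Id1 (ENSMUSG00000042745, chromosome 2, 152736251 to 152737410, GRCm38) was counted 13185, 5487 and 7912 times in old KO, 323, 402 and 35 times in old WT and 47767, 13581 and 26322 times in young WT libraries. As CPM these were 979.8, 486 and 451 in old KO, 63.1, 128 and 10.2 in old WT and 645, 484 and 848 in young WT. Every old KO and young WT library lay above every old WT library, while old KO overlapped young WT. Id1 was the one member above background in 2 old WT libraries, at 28.1 and 64.0 times background, and in the third it was at 2.90 times.

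Id3 (ENSMUSG00000007872, chromosome 4, 136143497 to 136145755) had 163, 138 and 117 CPM in old KO, 7.04, 5.41 and 4.64 CPM in old WT and 174, 232 and 182 CPM in young WT libraries. The 3 groups did not overlap: young WT was highest, old KO lower and old WT lowest. The old WT values rest on 36, 17 and 16 counts, between 0.858 and 2.03 times background, so Id3 lay near background there and did not pass the background rule. Id2 (ENSMUSG00000020644, chromosome 12, 25093799 to 25097140) took another course. It had 12.3, 262 and 188 CPM in old KO, 9.38, 5.72 and 22.6 CPM in old WT and 0.230, 3.10 and 2.03 CPM in young WT libraries. Old KO libraries 2 and 3 were far above all others, while old KO library 1 lay within the old WT range. In young WT, where 17, 87 and 63 counts were found, Id2 was above background in 2 libraries, in old KO in 3 and in old WT in 0.

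**Figure D1:**
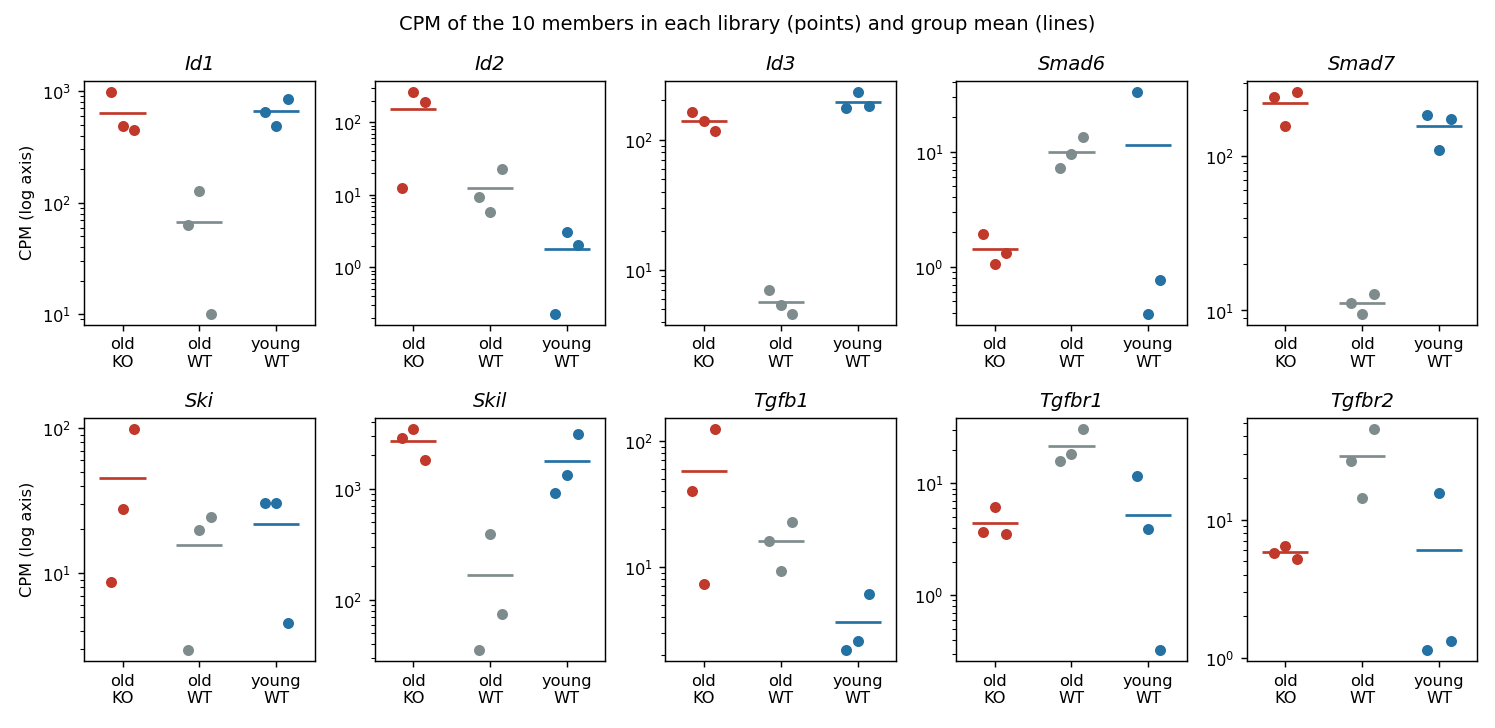
CPM of each of the 10 genes on a log axis, with 1 point per library and a line at the mean of each group of 3. Id1, Id3, Smad7 and Skil have every old KO and young WT library above every old WT library, while Id2 is high in 2 old KO libraries (262 and 188 CPM).

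Of the inhibitory Smads, Smad7, which blocks TGF-beta and BMP receptors and recruits ubiquitin ligases to them (ENSMUSG00000025880, chromosome 18, 75367529 to 75395935), had 243, 156 and 260.1 CPM in old KO, 11.1, 9.54 and 12.8 CPM in old WT and 186, 109 and 175 CPM in young WT libraries. Old KO and young WT overlapped, and old WT lay below both at 0.935 to 1.27 times background (57, 30 and 44 counts). Smad6, which acts mainly on BMP signals (ENSMUSG00000036867, chromosome 9, 63953076 to 64022059), had 1.93, 1.06 and 1.31 CPM in old KO, 7.23, 9.54 and 13.3 CPM in old WT and 32.9, 0.392 and 0.773 CPM in young WT libraries. It was above background in 0 libraries of either old group, and young WT library 1, with 2439 counts, held nearly all of its reads.

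Skil, which encodes SnoN (ENSMUSG00000027660, chromosome 3, 31095058 to 31122577), had the highest mean CPM of the 10 genes in every group. It had 2856, 3469 and 1825 CPM in old KO, 35.2, 391 and 75.1 CPM in old WT and 916, 1319 and 3123 CPM in young WT libraries. Old KO and young WT overlapped and old WT lay below both, with old WT library 2 the one in that group above background (23.4 times). Its relative Ski (ENSMUSG00000029050, chromosome 4, 155154075 to 155222592) was lower and more scattered, at 8.62, 27.8 and 98.9 CPM in old KO, 2.93, 19.7 and 24.4 CPM in old WT and 30.2, 30.5 and 4.51 CPM in young WT libraries. All 3 groups overlapped for Ski, which was above background in 2 old KO, 0 old WT and 3 young WT libraries.

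The ligand Tgfb1 (ENSMUSG00000002603, chromosome 7, 25687002 to 25705077) had 40.2, 7.27 and 125 CPM in old KO, 16.0, 9.22 and 22.6 CPM in old WT and 2.18, 2.56 and 6.12 CPM in young WT libraries. Old KO was widely spread and contained the old WT range, and young WT was below both groups. In old WT it did not rise above background (1.06 to 1.64 times), whereas in old KO libraries 1 and 3 it did, at 16.0 and 78.2 times. It was also above background in all 3 young WT libraries, at 13.1 to 27.1 times. The type I receptor Tgfbr1 (ENSMUSG00000007613, chromosome 4, 47353222 to 47414931) had 3.64, 6.11 and 3.53 CPM in old KO, 15.8, 18.4 and 30.7 CPM in old WT and 11.6, 3.88 and 0.322 CPM in young WT libraries. The type II receptor Tgfbr2 (ENSMUSG00000032440, chromosome 9, 116084293 to 116175360) had 5.72, 6.47 and 5.19 CPM in old KO, 26.4, 14.3 and 45.2 CPM in old WT and 1.13, 15.5 and 1.32 CPM in young WT libraries. Both receptors had their highest mean CPM in old WT, yet in all 6 old libraries they stood at 1.02 to 2.00 times background, and each was above background in 2 young WT libraries alone.

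**Figure D2:**
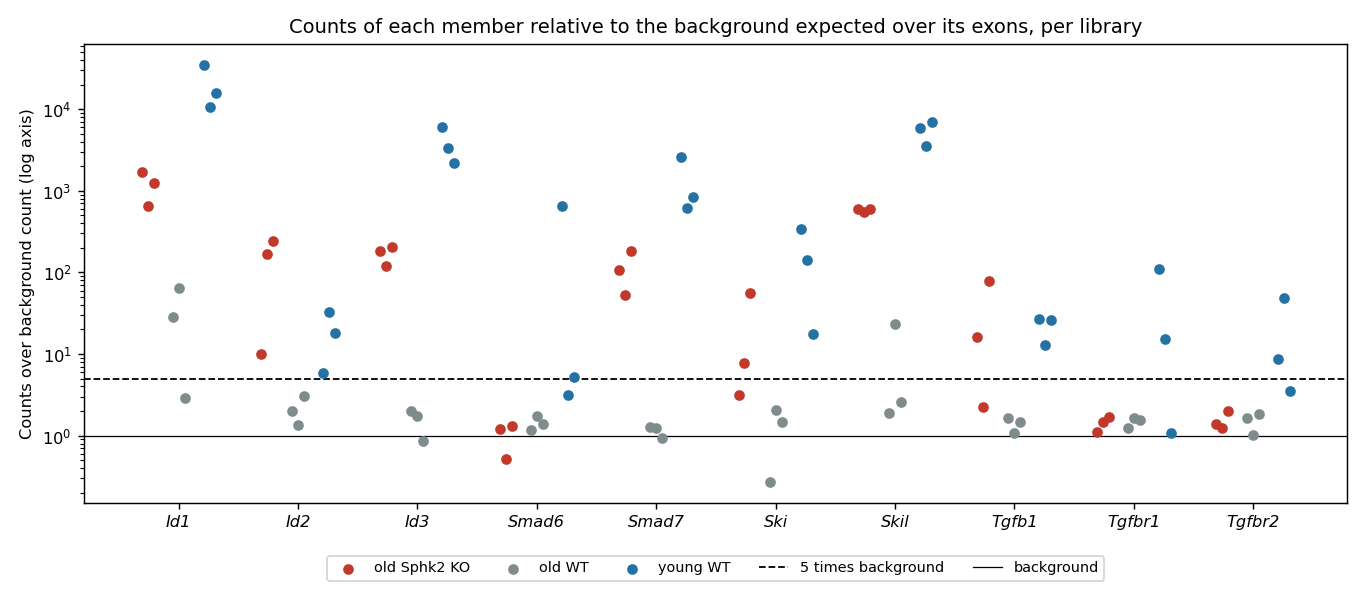
Counts of each gene divided by the background count expected over its exons, on a log axis, 1 point per library, with lines at background and at 5 times background. Of the old WT points, 2 for Id1 and 1 for Skil lie above the dashed line. Smad6, Tgfbr1 and Tgfbr2 lie near background in both old groups.

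Scaled by exon length, the mean order in old KO was Id1 (551 ± 255 CPM per kb), Skil (280.2 ± 85.7), Id3 (78.0 ± 13.0), Id2 (63.2 ± 52.5) and Smad7 (48.6 ± 12.3), followed by Tgfb1 (11.4 ± 12.0) and Ski (8.11 ± 8.55), with Tgfbr2, Tgfbr1 and Smad6 under 1 CPM per kb (SD, n = 3 each). Id3, Id2 and Smad7 had overlapping neighbours in that order. In old WT, Id1 (57.8 ± 50.8 CPM per kb) and Skil (17.2 ± 20.1) led by mean, but Id1 overlapped Skil and Skil overlapped Id2. The other 8 genes lay between 2.47 and 5.16 CPM per kb, each overlapping its neighbour. In young WT, Id1 (568 ± 158), Skil (184 ± 121), Id3 (109 ± 17.4) and Smad7 (34.6 ± 9.19) led, with only Skil and Id3 overlapping among them, and Ski (3.91 ± 2.68) and Smad6 (3.55 ± 5.83) came next. Id2 was among the lowest in young WT, at 0.732 ± 0.594 CPM per kb, and behind only Id1, Skil and Id3 in old KO.

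All 10 genes passed the filter on low counts in a fit over 32582 genes by edgeR's quasi-likelihood test, with libraries scaled by their total counts in genes and p-values adjusted by Benjamini-Hochberg. A gene is called at an adjusted p under 0.05, and each log2 fold change is given with its standard error (SE).

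In old WT against young WT, 4 of the 10 genes were called lower and 0 higher. Of all genes tested, 3.48% were called lower and 68.4% higher. Id3 fell by 5.10 ± 1.11 (adjusted p = 0.0011, edgeR quasi-likelihood), with 5.69 ± 1.22 CPM in old WT and 196 ± 31.2 CPM in young WT (SD, n = 3 each). Smad7 fell by 3.81 ± 1.04 (adjusted p = 0.0038) with 11.1 ± 1.61 CPM in old WT and 156 ± 41.5 CPM in young WT, Skil fell by 3.42 ± 0.95 (adjusted p = 0.0042) with 167 ± 195 CPM in old WT and 1786 ± 1176 CPM in young WT, and Id1 fell by 3.30 ± 1.01 (adjusted p = 0.0081) with 67.0 ± 58.9 CPM in old WT and 659 ± 183 CPM in young WT, in the same test. Each call was kept without any single library. These falls were shared with many abundant genes: of 706 genes at 100 CPM or more in each young WT library, a group that includes all 4 and was set after their values were seen, 44.5% were called lower and 0.283% higher, and 60.9% had ranges apart with old WT below. The set was picked for high values in young WT, a group in this comparison, which itself favours lower values in old WT. With TMM factors, which lay 3.90 log2 units below total counts over all genes, the same 4 genes were called lower together with Smad6 (-4.69) and Ski (-4.62), and 18.4% of all genes were called lower and 18.6% higher. With background subtracted, the fit held only the 8629 genes above background in at least 2 libraries of 1 or more groups. In it 0 of the 10 genes were called, with 0.0579% of the 8629 called lower and 0.0811% higher. The folds were -6.33 for Smad7, -6.15 for Id3, -3.03 for Skil and -2.86 for Id1. By CPM ranges, old WT lay apart below young WT for 4 of the 10 genes and above it for 3 (Id2, Tgfb1 and Tgfbr1), against 5.87% and 65.0% of all genes.

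The other 6 genes were not called in old WT against young WT. Id2 (2.82 ± 1.35), Tgfbr2 (2.26 ± 1.23), Tgfb1 (2.14 ± 1.22) and Tgfbr1 (2.04 ± 1.20) had positive fold changes with total counts and negative ones with TMM factors or in DESeq2, and none of these 4 genes was above background in old WT. Ski was at -0.47 ± 1.25 and Smad6 at -0.18 ± 1.31. Several of these values rested on 1 library: without young WT library 1, Smad6 was called higher at 4.08 and Tgfbr1 at 3.36, and without young WT library 2, Tgfbr2 was called higher at 4.54. Without old KO library 1, which is in neither group, the fold of Id2 stayed at 2.82 and passed the threshold. The median fold change of the 10 genes was -0.33, against 5.30 over all 32582 genes. Over the 8605 tested genes above background in at least 2 libraries of 1 or more groups, which include all 10, it was -0.81.

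Old KO was set against old WT, groups that differ in library content as well as in the Sphk2 label. By edgeR's quasi-likelihood test 0 of the 10 genes were called. An unadjusted p under 0.05 was reached by 5 (Skil, Id3, Smad7, Id1 and Id2). Of all genes tested, 29.2% had such an unadjusted p in either direction, and 0.00614% were called higher and 0 lower. By CPM, Id1, Id3, Smad7 and Skil had every old KO library above every old WT library, and Smad6, Tgfbr1 and Tgfbr2 had every old KO library below. Ranges lay apart with old KO higher in 1.91% of all genes and with old KO lower in 48.8%. Of the 706 genes abundant in young WT, 32.9% had old KO above old WT in this way. The fold change was 4.61 ± 1.09 for Id3 (140 ± 23.2 CPM in old KO against 5.69 ± 1.22 CPM in old WT, adjusted p = 0.146), 4.30 ± 1.06 for Smad7 (219.7 ± 55.8 against 11.1 ± 1.61 CPM, adjusted p = 0.148), 4.02 ± 0.97 for Skil (2717 ± 831 against 167 ± 195 CPM, adjusted p = 0.146) and 3.25 ± 1.01 for Id1 (639 ± 296 against 67.0 ± 58.9 CPM, adjusted p = 0.149; SD, n = 3 each, edgeR quasi-likelihood).

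The calls in old KO against old WT depended on the fit. With TMM factors Id3 (6.46 ± 1.19, adjusted p = 0.0338), Smad7 (6.32 ± 1.23, adjusted p = 0.0386) and Skil (5.68 ± 1.17, adjusted p = 0.0460, edgeR quasi-likelihood) were called higher, where 0.457% of all genes were. After background subtraction 0 of the 10 were called, with 0.151% of the 8629 genes in that fit called higher and 0.0116% lower. The folds were 7.38 for Smad7, 6.31 for Id3, 4.30 for Skil and 3.43 for Id1. With the 6 compared libraries alone Id3, Smad7 and Skil were called higher (adjusted p = 0.0403 for each, edgeR quasi-likelihood), and Smad6 (-2.79) and Tgfbr1 (-2.29) lower. Of the 27824 genes in that fit, 1.28% were called higher and 27.6% lower. DESeq2 called 6 genes higher and 0 lower, against 4.75% and 0.862% of all genes, with Id1 (4.55), Id2 (5.30) and Tgfb1 (3.71) among them. Id2 was at 3.61 ± 1.39 with total counts and had overlapping ranges, as had Tgfb1 (1.85 ± 1.21) and Ski (1.53 ± 1.28). Without old KO library 3, Tgfb1 was at 0.57 and Ski at 0.22. The 3 genes that were lower by CPM, Smad6 (-2.80 ± 1.41), Tgfbr1 (-2.29 ± 1.21) and Tgfbr2 (-2.31 ± 1.24), had reads near background in both groups, and the background itself was lower in old KO. The median fold change of the 10 genes was 2.55, against -1.91 over all genes and -0.47 over the 8605 genes above background.

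**Figure D3:**
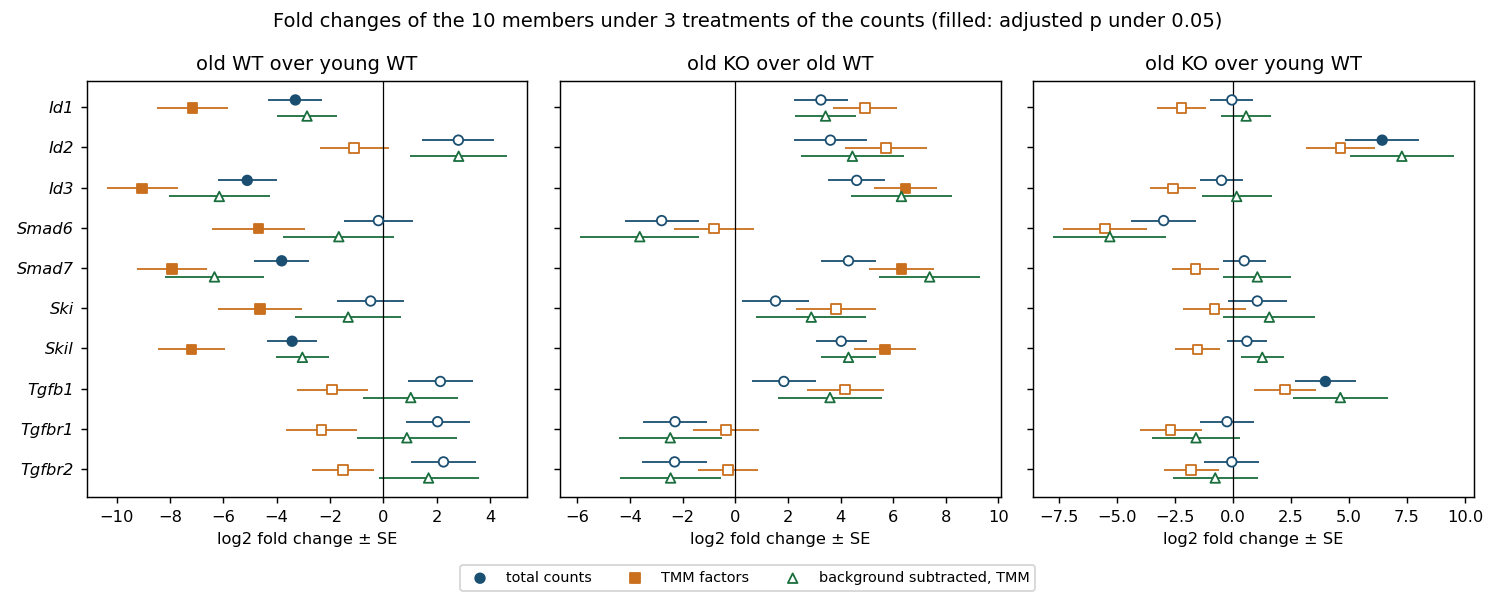
Log2 fold changes with SE for the 10 genes in the 3 comparisons, from edgeR's quasi-likelihood test with total counts, with TMM factors and after background subtraction. Filled symbols passed an adjusted p of 0.05. Id1, Id3, Smad7 and Skil lie below 0 in old WT over young WT and above 0 in old KO over old WT in all 3, and with total counts between -0.49 and 0.60 in old KO over young WT.

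In old KO against young WT, Id2 and Tgfb1 were called higher and 0 genes lower. Of all genes tested, 52.7% were called higher and 3.93% lower, so 2 of 10 is below the share of all genes. Id2 rose by 6.43 ± 1.59 (adjusted p = 0.0094, edgeR quasi-likelihood), with 154 ± 128 CPM in old KO and 1.79 ± 1.45 CPM in young WT (SD, n = 3 each). It kept its call without any single library (5.81 to 7.09) and in DESeq2 (4.44). With TMM factors it was not called (4.63, adjusted p = 0.0504, edgeR quasi-likelihood), where 6.92% of all genes were called higher and 5.84% lower. Nor was it called after background subtraction, where 0.0464% of 8629 genes were called higher. Tgfb1 rose by 3.98 ± 1.32 (adjusted p = 0.0208, same test), with 57.4 ± 60.5 CPM in old KO and 3.62 ± 2.18 CPM in young WT. It lost the call without old KO library 3 (2.71), young WT library 1 (3.72) or young WT library 2 (3.79), and with TMM factors (2.25), in DESeq2 (1.98) or after background subtraction (4.63).

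Id1, Id3, Smad7 and Skil, which separated old WT from the other groups, were not called between old KO and young WT. Skil was at 0.60 ± 0.86, Smad7 at 0.49 ± 0.93, Id1 at -0.04 ± 0.93 and Id3 at -0.49 ± 0.93 with total counts. An SE of nearly 1 log2 unit leaves room for differences of several fold in either direction, so these values do not show equal levels. By TMM factors all 4 were below 0 (-1.52, -1.61, -2.22 and -2.58), and DESeq2 called Smad7 (-1.94), Id1 (-2.48), Id3 (-2.86) and the receptor Tgfbr1 (-3.12) lower, with 13.7% of all genes, and Id2 higher, with 14.3%. The Id3 ranges lay apart, with old KO below young WT, as in 4.06% of all genes and 26.9% of the 706 abundant genes, a set picked as high in young WT. Those of Id2 and Tgfb1 lay apart with old KO above, as in 53.5% of all genes. Smad6 was at -2.98 ± 1.41 and was called lower without young WT library 2 (-3.55) or 3 (-3.53), but at 1.29 without young WT library 1. Ski (1.05 ± 1.26), Tgfbr1 (-0.25 ± 1.15) and Tgfbr2 (-0.05 ± 1.18) were not called. The 3 comparisons share libraries in pairs, so they are not independent of each other.

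A further 73 genes of the pathways were examined by role. In old WT against young WT 37 were called higher, 5 lower and 31 not called with total counts, beside 68.4% of all genes called higher and 3.48% lower. Of the 37 called higher, 35 did not pass the background rule in any of the old WT libraries. In all, 13 of the 73 passed the background rule in at least 2 libraries of old KO, 2 of old WT and 31 of young WT. The 5 called lower were the inhibin subunit gene Inha, the co-repressor gene Tgif1, and the target genes Klf10 (-5.21 ± 1.25), Junb and Hes1 (-3.48 ± 1.12), of which Tgif1, Klf10 and Hes1 are named after their values were seen. Inha fell by 5.14 ± 1.88 (adjusted p = 0.0217, edgeR quasi-likelihood), with 0.587, 0.318 and 3.19 CPM in old WT against 128, 16.0 and 0.0322 CPM in young WT libraries, whose ranges overlapped. With TMM factors 16 were called higher and 27 lower, beside 18.6% and 18.4% of all genes. Between old KO and old WT, 0 of the 73 were called (22 at an unadjusted p under 0.05, close to the 29.2% of all genes), and with TMM factors Klf10 and Junb were called higher, beside 0.457% of all genes. Between old KO and young WT, 32 were called higher, 6 lower and 35 not called, beside 52.7% of all genes called higher and 3.93% lower. The median fold change of the 73 genes was 3.29 in old WT over young WT, -1.70 in old KO over old WT and 2.05 in old KO over young WT, beside 5.30, -1.91 and 3.2 over all genes in these comparisons. Over the 8605 genes above background, which include 33 of the 73, the medians were -0.81, -0.47 and -0.64.

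Among the target genes, Junb, an AP-1 subunit gene that TGF-beta induces in many cells, had 6919, 7748 and 8169 CPM in old KO, 833, 1561 and 1095 CPM in old WT and 4586, 2931 and 5140 CPM in young WT libraries. It was above background in all 9 libraries, and the 3 groups did not overlap: old KO was highest, young WT lower and old WT lowest. Junb fell by 1.86 ± 0.57 in old WT against young WT (adjusted p = 0.0083, edgeR quasi-likelihood). Between old KO and old WT it was at 2.71 ± 0.59 (adjusted p = 0.146, edgeR quasi-likelihood). After background subtraction, 33 of the 73 pathway genes entered the fit, and Junb was the one called (2.80 ± 0.44, adjusted p = 0.0145, same test). Gata2, a stem cell transcription factor gene and BMP target, had 682, 907 and 865 CPM in old KO, 19.0, 592 and 34.8 CPM in old WT and 1081, 862 and 1071 CPM in young WT libraries. Old WT library 2, which also held the highest old WT levels of Id1 and Skil, was the one in that group with Gata2 above background.

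Of the genes outside the targets, the ligand gene Gdf15 had the highest mean CPM, with 566, 946 and 737 CPM in old KO, 493, 56.9 and 24.7 CPM in old WT and 265, 228 and 319 CPM in young WT libraries. The co-receptor gene Eng had 50.1, 89.0 and 279 CPM in old KO, 486, 15.9 and 33.1 CPM in old WT and 149.8, 145 and 353 CPM in young WT libraries, so 1 old WT library was above all others. Tgfbr3, the betaglycan co-receptor gene, was above background in 1 old KO, 0 old WT and 3 young WT libraries. Smad3, which carries TGF-beta signals, had 315, 270.4 and 2.17 CPM in old KO, 9.97, 7.63 and 21.8 CPM in old WT and 101, 8.65 and 32.7 CPM in young WT libraries. Smad2, its partner in that branch, had 0.223, 2.66 and 1.48 CPM in old KO, 9.19, 19.1 and 16.5 CPM in old WT and 89.9, 37.2 and 73.7 CPM in young WT libraries. It was above background in young WT alone, and it fell by 5.52 ± 1.36 in old KO against young WT (adjusted p = 0.0094, edgeR quasi-likelihood). Among regulators, Nrros, which anchors latent TGF-beta on myeloid cells, had 209, 302 and 23.0 CPM in old KO, 15.1, 8.90 and 25.2 CPM in old WT and 165, 180 and 10.4 CPM in young WT libraries. The ubiquitin ligase gene Smurf2 averaged 82.7 ± 75.5 CPM in old KO, 25.0 ± 11.0 CPM in old WT and 65.4 ± 56.6 CPM in young WT. The E protein gene Tcf4 was called higher in old WT against young WT (3.29 ± 1.26, adjusted p = 0.0270, edgeR quasi-likelihood), where 433 CPM in old WT library 1 led. In old WT libraries 2 and 3, none of the 3 E protein genes checked was above background. In this comparison 68.4% of all genes were called higher. Tcf12, another E protein gene, was not called (-0.68 ± 1.20).

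**Figure D4:**
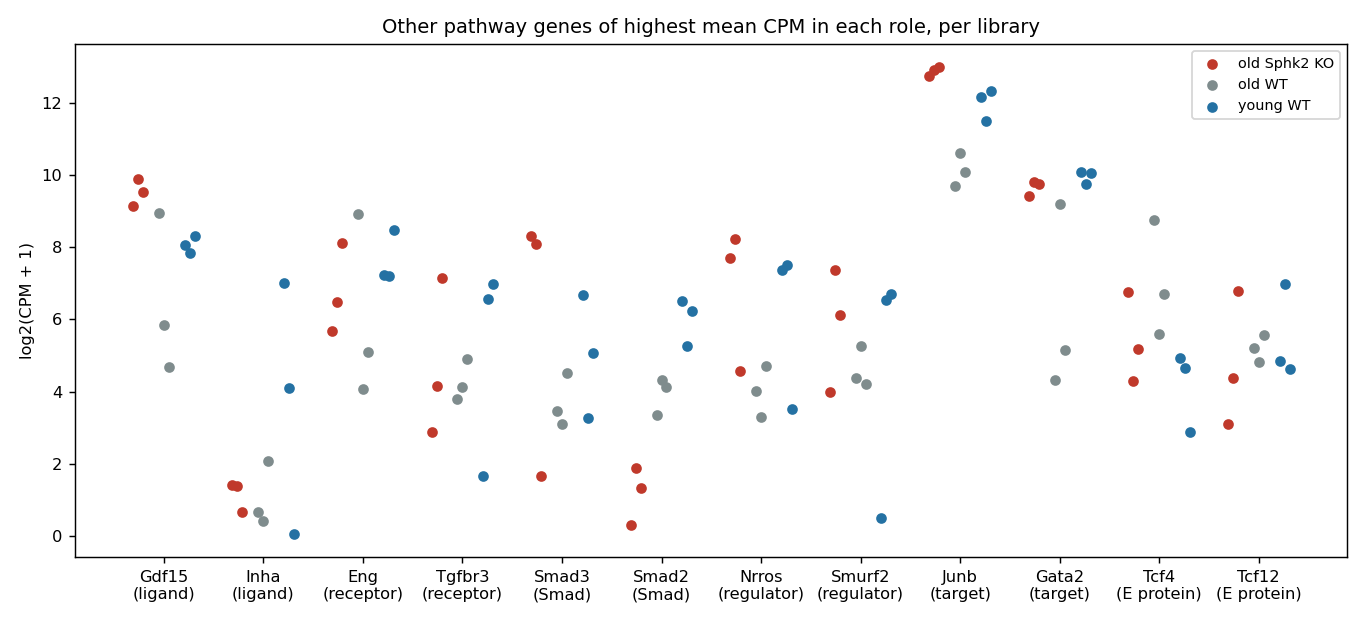
Levels of the 2 further pathway genes of highest mean CPM in each role, as log2(CPM + 1), 1 point per library. Junb and Gata2 have all old KO and young WT libraries above all old WT libraries, and Smad2 is highest in young WT.

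Over the 9 libraries, the genes whose log2(CPM + 1) correlated most with that of Id1, among 4606 genes with a mean of at least 50 CPM in a group, were Cfl1 (r = 0.98), Ptma (0.98) and Ptov1 (0.96). For Smad7 they were Hdgf (0.99), Morf4l2 (0.99) and Zyx (0.99). For Tgfbr2, whose old reads lie near background, they were Xpr1 (0.98), Cspp1 (0.97) and Zfyve26 (0.97). The points share library depth and background, so these correlations describe the 9 libraries and carry no test.

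Markers of other cells were checked beside these results. The 3 B cell, 3 T cell, 3 macrophage and 3 stroma genes were above background in 0 old KO and 0 old WT libraries. In young WT library 1, Cd79a (0.459 CPM), Cd3d (0.270 CPM) and C1qb (3.11 CPM) passed, and in the other young WT libraries none of them did. The 5 granulocyte genes summed to between 1.20 and 87.8 CPM in old KO, 14.5 and 614 CPM in old WT and 10.4 and 31.6 CPM in young WT libraries. The highest sum was in old WT library 3, the library lowest in Id1 and Id3, though Id3 lay near background in all 3 old WT libraries. Skil (75.1 CPM) was not the lowest of the group there, and Smad7 (12.8 CPM), also near background, was at its highest. In that library S100a8 (541 CPM) and Elane (60.3 CPM) were above background, while S100a9 (4.35 CPM), Ly6g (5.22 CPM) and Itgam (2.90 CPM) were not. The 3 erythroid genes summed to between 1.65 and 2.30 CPM in old KO, 2.54 and 16.0 CPM in old WT and 29.7 and 117 CPM in young WT libraries. The 3 platelet genes summed to between 83.9 and 554 CPM in old KO, 30.2 and 393 CPM in old WT and 367 and 794 CPM in young WT libraries, and the 2 endothelial genes to between 9.88 and 252 CPM in old KO, 18.8 and 32.2 CPM in old WT and 10.3 and 29.5 CPM in young WT. The part of these markers in the Id1 and Id3 values was not tested. Without old WT library 3, Id1 was at -2.79 and Id3 at -4.97 in old WT against young WT, and both were still called.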

How the data were processed

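The authors deposited a table of raw counts per gene for 9 libraries of 1000 sorted cells each. Per the labels' protocols the cDNA was amplified by PCR, and per the submitters' processing notes the tools were Trim Galore 0.6.2, STAR 2.6.1d, HTSeq 0.10.0 and edgeR 3.24.3, with build mm10. The annotation and the strand setting were not given in the sources used here, so a gene and an antisense partner cannot be told apart. The 5 lines that name no gene were left out of library sizes. Of 52550 identifiers 52403 matched a symbol, and exon lengths were read from the GENCODE annotation of GRCm38. Counts of old KO, old WT and young WT were fitted together in edgeR 4.0.16 (R 4.3.3) after its filter on low counts, with the quasi-likelihood test and Benjamini-Hochberg adjustment over 32582 genes, and libraries were scaled by counts in genes so that fold changes stay on the CPM scale. The SE is the log2 fold change over the square root of its F value. Alternatives were TMM factors, DESeq2 1.42.0, other filters, background subtraction, each comparison's 6 libraries, a replicate block, and each library left out.

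The 10 genes, the 73 further genes and the tests were chosen with earlier results of these data known. The text names all members, the 2 further genes of highest mean CPM in each role, Sphk2, and the 3 genes most correlated with Id1, Smad7 and Tgfbr2. Of the pathway symbols, Ctgf was matched under Ccn2. Amplified reads are not independent molecules, so depth sets counting error only.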

Additional observations from a re-analysis of the deposited data

How the results depend on the processing

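The 4 falls in old WT against young WT (Id1, Id3, Smad7, Skil) kept their direction under every alternative and lost their call after background subtraction alone. Members called, further pathway genes called and all genes called were 4, 42 and 23414 in old WT against young WT, 0, 0 and 2 in old KO against old WT, and 2, 38 and 18438 in old KO against young WT. Of all genes called in old WT against young WT, 22280 were higher and 1134 lower with total counts, and 6062 were higher and 5996 lower with TMM factors (12058 in all).

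In old KO against old WT, the same 3 counts were 3, 2 and 149 with TMM factors, 6, 9 and 1829 in DESeq2, and 5, 19 and 8046 with the 6 compared libraries. All genes called came to 116 with no filter. Pathway genes and all genes came to 1 and 12 with a stricter filter (Smad6 did not pass it), 1 and 14 after background subtraction with TMM factors, and 1 and 11 after background subtraction with total counts, an alternative chosen after seeing the data. In old KO against young WT, the 3 counts were 0, 13 and 4158 with TMM factors, 5, 24 and 9154 in DESeq2, and 0, 0 and 4 after either background subtraction. With the 6 compared libraries 1 member and 11182 genes were called, and with a stricter filter 14 pathway genes and 3304 genes. In old WT against young WT, a stricter filter gave 17 pathway genes and 3724 genes, and background subtraction 0 members, 0 pathway genes and 12 genes (16 with total counts). The cause was not tested. Background subtraction left 8629 genes in the fit, with 33 of the 73 pathway genes among them, so its counts are of these.

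Leaving out each library gave 4 to 6 members, 40 to 47 pathway genes and 23393 to 27869 genes in old WT against young WT, 0 to 5 genes in old KO against old WT, and 1 to 3 members, 28 to 42 pathway genes and 12329 to 18999 genes in old KO against young WT. The ranges that crossed 0 were, in old WT against young WT, -0.75 to 4.08 for Smad6 and -0.96 to 0.019 for Ski, and, in old KO against young WT, -3.55 to 1.29 for Smad6, -0.49 to 0.18 for Id1, -0.81 to 1.07 for Tgfbr1, -0.54 to 2.23 for Tgfbr2 and -0.26 to 1.54 for Ski.

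With TMM factors and in DESeq2, old WT against young WT turned to -1.09 and -0.86 for Id2, -1.92 and -1.73 for Tgfb1, -2.32 and -2.37 for Tgfbr1 and -1.51 and -1.35 for Tgfbr2, and old KO against young WT to -1.61 and -1.94 for Smad7, -0.79 and -1.25 for Ski and -1.52 and -1.69 for Skil. After background subtraction, old KO against young WT was 0.57 for Id1 (0.063 with total counts) and 0.16 for Id3.

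Same-numbered libraries of different groups did not deviate together (r of -0.0256 to 0.0350 over 9 pairs), so there was no sign that the numbers pair them. Spread between single libraries could hide a shared effect, so pairing is not excluded. With the replicate number as a block, 5 members were called in old WT against young WT and 1 in old KO against young WT. The shares of all genes called with the block are not given here. Without it, 68.4% were called higher and 3.48% lower in the first comparison, and 52.7% and 3.93% in the second. With the block, Smad6 was at 1.81 in the first, and Tgfbr1 at 0.12 and Tgfbr2 at 0.62 in the second. Old WT libraries hold the fewest counts in genes. A gene under 5 times background there did not pass the background rule, which does not show that its transcript was absent.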
